A study of Homo sapiens with 11 samples.

Results

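Cultures of A375 melanoma cells that survived long exposure to trametinib were compared with the same 5 cultures after the drug had been taken away. The comparison uses 10 of the 11 libraries of the study, 5 from persister cultures and 5 from withdrawn cultures, and every gene with enough reads. Libraries were chosen by their column names in the deposited count table and paired by culture number, because the title of a withdrawn sample repeats the number of its persister culture.

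A375 is an established human melanoma line that carries an activating BRAF mutation. The labels give its genotype as WT, meaning that no engineered change is described, and all groups share this background and the same growth medium with serum. Persister cultures are those that had spent 8 weeks in trametinib at 2 nM, and withdrawn cultures were sampled after 4 weeks without the drug. The remaining library came from untreated parental A375 cells and is printed beside the results as a reference level, with no error, because it stands alone. The labels do not say whether the 5 cultures were selected separately from the start, so p-values measure the spread between these samples, which may in part be technical. All cells descend from 1 line, which limits the cultures as a model of melanoma in general.

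Trametinib inhibits MEK1 and MEK2, the kinases that activate ERK at the end of the RAS, RAF, MEK and ERK signalling cascade. Active ERK switches on transcription factors and also its own inhibitors, such as the dual-specificity phosphatases and the Sprouty proteins, so the RNA of these inhibitors is widely used as a readout of pathway output. Drug-tolerant persister cells are cells that outlast a drug without a stable resistance mutation, and melanoma cells in that state are known to change their differentiation programme, their matrix and their rate of division.

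Total counts ranged from 56513920 to 82984566 per library. Values are given as CPM, read counts scaled to a common library size after correction for library composition. A log2 fold change is withdrawn over persister, given ± its standard error, and comes from edgeR's quasi-likelihood test with the culture as a block, and p-values were adjusted by the Benjamini-Hochberg method over all 19631 genes tested. A gene is called when its adjusted p is under 0.05. Gene coordinates are those of GENCODE release 29 on GRCh38. Libraries of 1 group differed from each other by more than counting noise in every pair, so none was treated as a copy of another. In bulk RNA, fewer cells that express a gene and less RNA per cell cannot be told apart.

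A large part of the transcriptome differed between withdrawn and persister cultures. No library came from cultures kept in drug over the same weeks. The effect of drug removal was therefore not tested apart from added time in culture, outgrowth of some cells or sampling occasion. Of 19631 genes tested, 10630 (54.1%) were called, 5211 of them higher after withdrawal (26.5%) and 5419 lower (27.6%). The median called gene differed 1.92-fold between the groups. Changes shown to exceed 2-fold numbered 2735 (13.9%), with 1326 higher (6.75%) and 1409 lower (7.18%). By point estimate, 416 called genes were over 10-fold higher and 560 over 10-fold lower. The groups did not overlap in 8867 genes (45.2%). Of the called genes, 9942 (93.5%) moved the same way in 5 of 5 pairs, and 688 had at least 1 pair that went the other way. For 4457 genes (22.7%) the 95% confidence interval of the fold change lay within 1.5-fold in either direction. A gene that passed the low-count filter only through the group where it is high had to differ. Some members of the lists below are weakly expressed genes of this kind, so each list's count is a description, to be read beside the 26.5% and 27.6% of all genes. The adjusted p of such a gene is no test of its change.

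**Figure D1:**
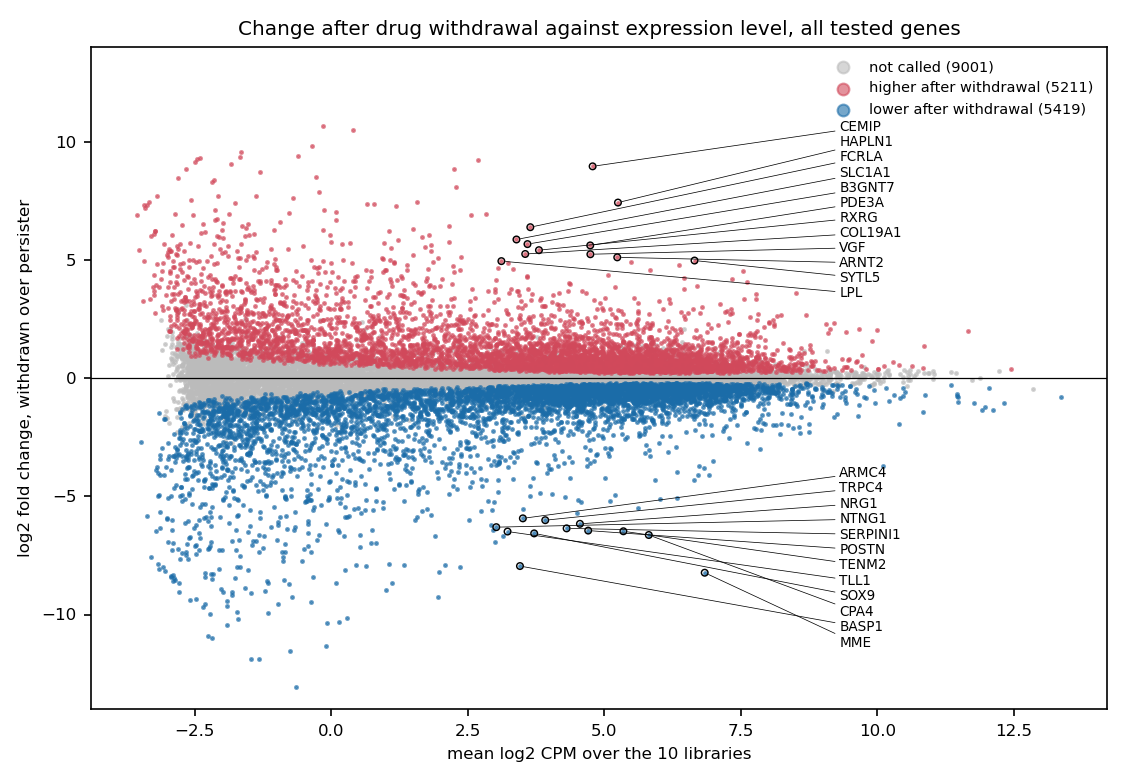
Change after drug withdrawal for the 19631 tested genes: the x axis is the mean log2 CPM over the 10 libraries, the y axis the log2 fold change of withdrawn over persister, and colour shows the 5211 genes called higher, the 5419 called lower and those not called. The 24 labelled points are the 12 largest rises and the 12 largest falls among well expressed protein-coding genes whose groups do not overlap.

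The largest rise among well expressed protein-coding genes (mean log2 CPM of at least 3) was that of CEMIP, which encodes a hyaluronan-degrading protein (chr15:80779343-80951776). CEMIP was at 0.261, 3.67, 1.39, 1.16 and 1.33 CPM in persister cultures 1 to 5 and at 552, 705, 647, 534 and 753 CPM in the same cultures after withdrawal. All withdrawn libraries lay far above all persister libraries, and the parental library was at 459 CPM. The log2 fold change was 8.95 ± 0.51, or 496-fold (adjusted p = 2.57e-05). HAPLN1, whose product links hyaluronan to proteoglycans, followed, from 0.246, 3.40, 15.7, 1.07 and 8.14 CPM to 566, 439, 507, 652 and 577 CPM. Persister culture 3 held the highest level before withdrawal and culture 1 the lowest, and the withdrawn libraries stood close together. HAPLN1 rose with a log2 fold change of 7.42 ± 0.99 (adjusted p = 0.000779).

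The other 10 largest rises among these well expressed genes had log2 fold changes between 4.94 and 6.38. Genes of lower mean level with large changes, such as CHRDL1, ITGA9 and ROS1, are given with their lists below. FCRLA, an intracellular relative of the Fc receptors, went from a range of 0.974 to 2.002 CPM to one of 107 to 125 CPM, above the parental 46.5 CPM. SLC1A1, a glutamate transporter, went from a range of 0.799 to 1.90 CPM to one of 68.9 to 84.4 CPM, and B3GNT7, a glycosyltransferase, from a range of 1.22 to 2.87 CPM to one of 77.2 to 93.3 CPM. RXRG, a retinoid X receptor, rose with a log2 fold change of 5.41 ± 0.26 and SYTL5, a Rab effector of membrane traffic, with one of 4.97 ± 0.33. PDE3A (a cyclic nucleotide phosphodiesterase), COL19A1 (a collagen), VGF (a secreted neuropeptide precursor), ARNT2 (a basic helix-loop-helix transcription factor) and LPL (lipoprotein lipase) complete the group, at log2 fold changes of 5.61, 5.25, 5.24, 5.10 and 4.94. In each of these genes the 2 groups were separate and every pair rose.

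Among the same well expressed protein-coding genes, MME, the cell-surface peptidase neprilysin (chr3:155024124-155183729), had the largest fall. It stood at 2278, 3212, 768, 1886 and 3011 CPM in persister cultures 1 to 5, among the abundant transcripts of the cell, and at 13.0, 1.19, 23.7, 6.59 and 4.78 CPM after withdrawal. The parental library held 0.169 CPM. The groups were separate by a wide margin, and withdrawn culture 3 kept the highest level and culture 2 the lowest. The log2 fold change was -8.23 ± 1.04 (adjusted p = 0.000608). BASP1, a membrane-bound growth cone protein, dropped from 268, 229, 236, 158 and 143 CPM to 1.16, 0.0349, 4.47, 0.859 and 0.220 CPM, with the same culture 3 highest and culture 2 lowest after withdrawal (log2 fold change -7.95 ± 0.81, adjusted p = 0.000246).

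SOX9, a factor that directs neural crest and cartilage development (chr17:72121020-72126420), was at 161, 112, 135, 127 and 133 CPM in the persister cultures and at 2.36, 0.453, 5.10, 1.46 and 0.384 CPM after withdrawal. The persister libraries were close together, whereas the withdrawn libraries spanned more than 10-fold around a low level, above the parental 0.138 CPM. SOX9 fell with a log2 fold change of -6.57 ± 0.59 (adjusted p = 0.000156). POSTN, the matrix protein periostin, varied widely in drug, and went from 102, 75.3, 229, 3194 and 179 CPM to 8.41, 0.244, 10.7, 13.0 and 0.412 CPM. Persister culture 4 was more than 10-fold above every other culture, and the groups still did not overlap (log2 fold change -6.45 ± 1.00, adjusted p = 0.00157). The other 8 were the carboxypeptidase CPA4 (log2 fold change -6.64), the matrix protease TLL1 (log2 fold change -6.49), the teneurin TENM2 (log2 fold change -6.48), the neuronal serpin SERPINI1 (log2 fold change -6.36), the netrin relative NTNG1 (log2 fold change -6.31), the ERBB3 and ERBB4 ligand NRG1 (log2 fold change -6.17), the cation channel TRPC4 (log2 fold change -6.01) and ARMC4, an axonemal protein of cilia (log2 fold change -5.93).

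Genes listed as negative-feedback inhibitors of the ERK cascade were mostly higher after withdrawal. Whether ERK induces each member in these cells was not tested. Of 14 listed members that passed the low-count filter, 10 rose and 3 fell, and their median log2 fold change was 1.03, beside 0.01 over all genes tested. DUSP6, the cytoplasmic phosphatase that removes phosphate from ERK (chr12:89347232-89353271), was at 21.2, 33.0, 22.5, 23.8 and 23.5 CPM in persister cultures 1 to 5 and at 175, 198, 177, 190.4 and 184 CPM after withdrawal. Values within each group were close, with no overlap, and every withdrawn library lay just above the parental 168 CPM. The log2 fold change of DUSP6 was 2.91 ± 0.10 (adjusted p = 5.2e-06). SPRY4, which blocks RAS activation (chr5:142310427-142326455), went from 12.8, 23.9, 13.4, 8.71 and 27.1 CPM to 411, 527, 372, 408 and 475 CPM, a log2 fold change of 4.79 ± 0.22 (adjusted p = 1.13e-05). Every withdrawn library exceeded every persister library by more than 10-fold.

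SPRY2, DUSP4 and SPRED1, 3 further inhibitors of the cascade, rose with log2 fold changes of 2.74 ± 0.11, 1.36 ± 0.16 and 1.06 ± 0.11. The nuclear phosphatase DUSP4 was at 88.3 to 187 CPM before and 335 to 397 CPM after withdrawal, so its persister level was a larger share of its withdrawn level than that of SPRY4. The 3 members that fell were DUSP2 (log2 fold change -1.42 ± 0.34, adjusted p = 0.0103), SPRY3 (log2 fold change -1.17 ± 0.22, adjusted p = 0.00340) and the RAS ubiquitin ligase adaptor LZTR1 (log2 fold change -0.47 ± 0.13, adjusted p = 0.0202); LZTR1 was not called when culture 1, 2, 3 or 5 was left out (adjusted p = 0.0537, 0.0508, 0.0552 and 0.0597). LZTR1 shares 67.7% of its exon bases with AC002470.2 on the same strand, so its count is uncertain. DUSP2 did not fall in every culture: in culture 1 it was at 1.34 CPM before and 1.42 CPM after withdrawal. The summed CPM of the list ranged from 396 to 542 in persister and from 1603 to 1787 in withdrawn libraries, with 1717 in the parental library.

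Transcription factors that ERK induces divided by family. Of 29 members tested, 15 rose and 6 fell, with a median log2 fold change of 0.49. The ETS factors ETV4 and ETV5, direct outputs of ERK in melanoma, rose with log2 fold changes of 3.37 ± 0.20 and 1.62 ± 0.09. ETV4 was at 23.2, 16.6, 12.6, 8.43 and 15.8 CPM in the persister cultures and at 153, 152, 159, 141 and 149 CPM after withdrawal, beside a parental 143 CPM, with no overlap. EGR3, an early growth response factor, was nearly silent in drug, at 0.0155 to 0.386 CPM, and stood at 20.5 to 24.4 CPM after withdrawal (log2 fold change 7.37 ± 0.56).

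EGR1, another early growth response factor, was uneven across cultures. Its level was 0.737, 51.8, 17.7, 18.3 and 6.11 CPM in persister cultures 1 to 5, with culture 1 lowest and culture 2 highest, and 72.2, 97.7, 87.7, 160.0 and 148 CPM after withdrawal. The groups did not overlap, and the rise between cultures ranged from a paired log2 difference of 0.92 to one of 6.56 (log2 fold change 3.37 ± 0.80, adjusted p = 0.0105). EGR1 was not called with no low-count filter (adjusted p = 0.0904).

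AP-1 subunits, which pair up as JUN and FOS family dimers, did not follow. Among 8 of them, a subset chosen after the values were seen, 1 rose, 4 fell and 3 were not called, with a median log2 fold change of -0.96. JUN itself (chr1:58780788-58784327) was at 74.4, 100.5, 109, 122 and 57.6 CPM before and 7.09, 14.1, 14.6, 14.3 and 9.49 CPM after withdrawal, below the parental 16.8 CPM, and the groups were separate. It fell with a log2 fold change of -2.96 ± 0.13 (adjusted p = 8.84e-06). ATF3, a stress-induced partner, and FOSL2 also fell, with log2 fold changes of -2.43 ± 0.22 and -1.82 ± 0.17. FOSL1 was at 121, 357, 172, 132 and 39.5 CPM in the persister cultures, highest in culture 2 and lowest in culture 5, and at 102, 111, 154, 103 and 109 CPM after withdrawal. These groups overlapped and no change was called (log2 fold change -0.21 ± 0.39, adjusted p = 0.682, 95% interval -1.14 to 0.72), and without culture 2 the log2 fold change was 0.16. CCND1, the D-type cyclin (log2 fold change 0.44 ± 0.20, adjusted p = 0.104), and MYC (log2 fold change 0.83 ± 0.38, adjusted p = 0.100) were not called either, and persister culture 2 was the 1 culture with a higher level in drug than after withdrawal in both genes. Without culture 2 both were called higher (adjusted p = 0.00707 for CCND1 and 0.00895 for MYC). With all cultures, DESeq2 also called MYC higher (adjusted p = 0.0253).

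Genes of the cascade itself changed in both directions. In the RAS, RAF, MEK and ERK list, 10 of 22 members rose and 3 fell, with a median log2 fold change of 0.23. The number that rose dropped to 5 without culture 3 and to 6 without culture 4. BRAF rose with a log2 fold change of 0.32 ± 0.08, although it was not called without culture 3 (adjusted p = 0.0656). MAP2K1, which encodes the drug target MEK1, had a log2 fold change of 0.20 ± 0.07 that just passed (adjusted p = 0.0497) and was not called when any 1 culture was left out (adjusted p = 0.124, 0.0659, 0.139, 0.0735 and 0.0955). MAP2K2, which encodes MEK2, was at 148 to 214 CPM before and 103 to 118 CPM after withdrawal and fell with a log2 fold change of -0.67 ± 0.10. The largest change of the list was in RPS6KA3, the kinase RSK2 that ERK phosphorylates, from 43.3, 59.6, 46.2, 60.1 and 32.9 CPM to 389, 479, 379, 382 and 424 CPM (log2 fold change 3.11 ± 0.15, adjusted p = 1.22e-05). Its groups were separate, and the parental library was at 534 CPM.

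**Figure D2:**
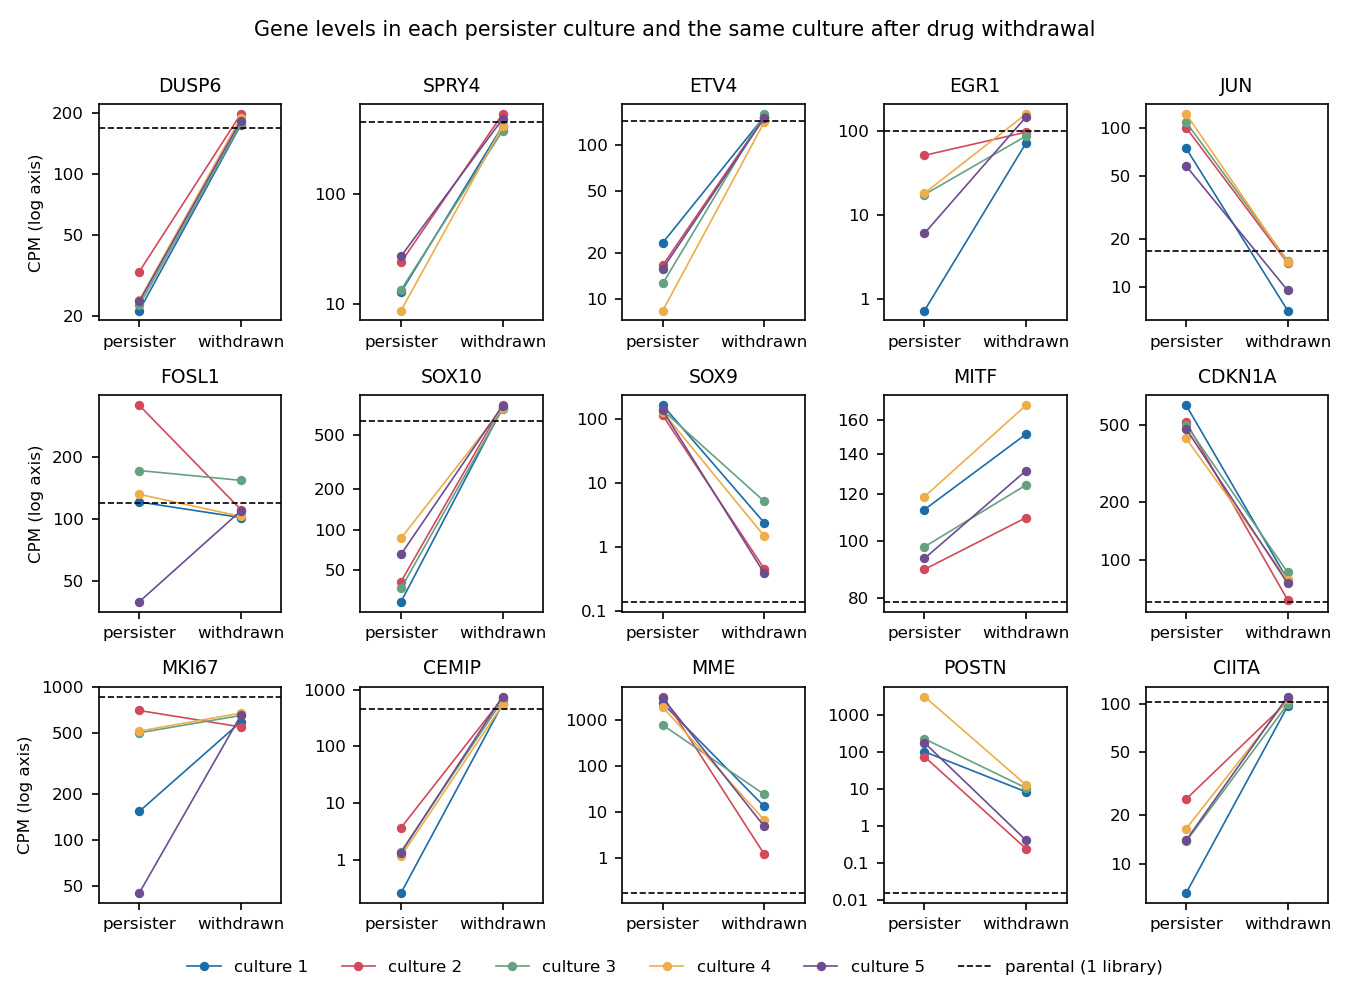
CPM on a log axis in each persister culture and in the same culture after withdrawal for 15 genes, with 1 line for each of the 5 cultures and a dashed line at the single parental library. DUSP6, SPRY4, ETV4, SOX10, CEMIP and CIITA rise in all 5 cultures and JUN, SOX9, CDKN1A, MME and POSTN fall in all 5, whereas FOSL1 and MKI67 differ in direction between cultures.

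The factors that set melanocyte and neural crest identity changed in both directions. Of 23 lineage factors tested, 13 rose and 7 fell (median log2 fold change 0.72). SOX10, a master regulator of the melanocyte lineage (chr22:37970686-37987422), was at 29.2, 41.2, 36.7, 86.4 and 65.7 CPM in the persister cultures and at 797, 834, 782, 793 and 829 CPM after withdrawal, with culture 4 highest in drug. All withdrawn libraries were above the parental 638 CPM, and the log2 fold change was 4.08 ± 0.25 (adjusted p = 2.85e-05). SOX9 went the opposite way. TFAP2B and SOX5, 2 further developmental factors, rose with log2 fold changes of 4.22 ± 0.26 and 3.89 ± 0.15, and PAX3, which acts with SOX10, rose with one of 0.81 ± 0.10.

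MITF, the central melanocyte transcription factor (chr3:69739435-69968337), moved less. It was at 113, 89.4, 97.6, 119 and 93.3 CPM before and 151, 109, 124, 169.6 and 131 CPM after withdrawal, so the groups overlapped although every culture rose (log2 fold change 0.41 ± 0.08, adjusted p = 0.00301). Both groups were above the parental 78.8 CPM. Falls were seen in MSX2, a homeobox factor (log2 fold change -3.33), and TFEC, a relative of MITF (log2 fold change -4.75).

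The pigment genes did not rise with SOX10 and MITF as a group: 6 of 18 tested members rose and 7 fell, with a median log2 fold change of -0.26. DCT, a melanin-synthesis enzyme, was at 229, 359, 253, 738 and 539.8 CPM in persister cultures and 47.3, 16.4, 22.5, 63.4 and 20.1 CPM after withdrawal, with no overlap (log2 fold change -3.71 ± 0.38, adjusted p = 0.000246). MLANA, the melanosome antigen MART-1, went from a range of 11.0 to 23.4 CPM to one of 0.440 to 0.817 CPM (log2 fold change -4.59 ± 0.20, adjusted p = 9.46e-06), and TYRP1 from a range of 2.26 to 7.41 CPM to one of 0.0563 to 0.151 CPM. PMEL was at 0.835 to 2.76 CPM before and 0.865 to 1.60 CPM after withdrawal and was not called (log2 fold change -0.35 ± 0.27, adjusted p = 0.303). Tyrosinase, TYR, had between 0 and 7 counts in every library and was not tested. The endothelin receptor EDNRB (log2 fold change 2.23) and the melanosome GTPase RAB38 (log2 fold change 1.58) rose. RAB38 was not called with no low-count filter (adjusted p = 0.0738). OCA2, a melanosome transporter, had 0 counts in all 5 persister libraries and 0.536 to 1.33 CPM in the withdrawn libraries, which is at least 96.4-fold higher when the persister group is set to a floor of 3 counts over the group.

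Genes of the neural crest-like melanoma state mostly rose, 14 of 23 against 2 that fell, with a median log2 fold change of 1.17. ERBB3, the neuregulin receptor, was at 29.2, 36.1, 31.8, 84.9 and 28.1 CPM before and 687, 655, 688, 669 and 718 CPM after withdrawal, separate and above the parental 622 CPM (log2 fold change 4.17 ± 0.27). Its ligand gene NRG1 fell in the same cultures, from a range of 145 to 258 CPM to one of 1.19 to 12.2 CPM. NES, an intermediate filament of neural progenitors, and S100B, a calcium-binding marker of glia and melanoma, rose with log2 fold changes of 3.00 ± 0.20 and 2.92 ± 0.27. The exceptions were the adhesion molecule L1CAM, which went from 746, 464, 350.4, 393 and 371 CPM to 18.2, 26.6, 40.5, 11.0 and 25.4 CPM (log2 fold change -4.32 ± 0.37, adjusted p = 0.000123), and the GDNF receptor GFRA1 (log2 fold change -3.73). NGFR, a marker often used for this state, was at 14.6 to 90.8 CPM in drug and 17.0 to 32.1 CPM after withdrawal and was not called (log2 fold change -0.65 ± 0.37, adjusted p = 0.182). Without culture 1 it was called, with a log2 fold change of -0.98 (adjusted p = 0.0444).

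The undifferentiated, AXL-high melanoma signature was lower after withdrawal, with 18 of 27 members lower and 3 higher (median log2 fold change -1.85). The WNT inhibitor DKK1 dropped from 275, 398, 264, 257 and 186 CPM to 10.8, 15.95, 28.4, 7.66 and 12.9 CPM (log2 fold change -4.29 ± 0.30, adjusted p = 4.94e-05). EGFR was at 31.1, 46.2, 23.4, 20.6 and 16.6 CPM before and 8.23, 5.84, 9.86, 5.63 and 6.32 CPM after withdrawal, below the parental 13.96 CPM, with no overlap (log2 fold change -1.87 ± 0.25, adjusted p = 0.000656). WNT5A, a non-canonical WNT ligand, fell with a log2 fold change of -1.24 ± 0.27. AXL itself did not pass: it was at 299, 505, 270.0, 212 and 114 CPM in the persister cultures and 167, 170.0, 239, 143 and 178 CPM after withdrawal, the groups overlapped, and culture 5 went the other way (log2 fold change -0.51 ± 0.29, adjusted p = 0.174, 95% interval -1.18 to 0.17). Without culture 5 it was called lower, with a log2 fold change of -0.78 (adjusted p = 0.0253). The members that rose were ZEB1, an epithelial-mesenchymal transition factor (log2 fold change 1.54), NT5E, the ectonucleotidase CD73 (log2 fold change 1.20), and PLAUR, the urokinase receptor (log2 fold change 1.12). PLAUR was not called without cultures 1 and 5 (adjusted p = 0.0727).

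Markers of other cell types were measured in the same libraries. PTPRC, the leukocyte antigen CD45, had 9, 10, 17, 39 and 31 counts in persister cultures 1 to 5 and 4, 1, 0, 3 and 1 after withdrawal. CD14 and NKG7 had at most 15 counts in any library, and CD3E at most 1. LYZ, the 1 leukocyte gene that passed the low-count filter, rose from a range of 0.0849 to 0.356 CPM to a range of 3.14 to 4.75 CPM, beside 6.82 CPM in the parental library (log2 fold change 4.68 ± 0.28, adjusted p = 2.34e-05), and the summed level of the leukocyte list was 0.614 to 0.943 CPM in persister and 3.51 to 5.13 CPM in withdrawn libraries, mostly LYZ in the withdrawn ones. Of 6 tested epithelial markers 1 rose and 3 fell, their sum was 219.5 to 255 CPM before and 140.2 to 185 CPM after withdrawal, and KRT1 and PKP1 had 0 counts throughout. Of 6 endothelial markers 3 rose and 3 fell, with a sum of 112 to 143 CPM before and 90.1 to 101 CPM after. Of 11 tested fibroblast markers 2 rose and 7 fell, with LUM, COL3A1, DCN and THY1 among those that fell. The summed CPM of this list was 163 to 498 in persister, 152 to 205 in withdrawn and 159 in parental libraries. That list shares collagens and lumican with the matrix lists below, and its part in them was not tested. Of the 11 melanoma identity markers tested, 6 rose and 4 fell. SOX10, PAX3, MITF and S100B, which rose, were present in all 10 libraries. DCT, MLANA and TYRP1 were among those that fell, with the levels given above, and TYR was near 0 in every library.

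Matrix genes changed in both directions by family. Of 31 collagens and collagen-modifying enzymes, 10 rose and 12 fell (median log2 fold change -0.23). The 6 fibrillar and associated collagens, a subset chosen after the values were seen, all fell, with a median log2 fold change of -3.86. COL5A1 was at 213, 361, 576, 564 and 325 CPM in the persister cultures and 12.2, 12.3, 13.1, 5.63 and 14.3 CPM after withdrawal, below the parental 32.9 CPM and with no overlap (log2 fold change -5.10 ± 0.40, adjusted p = 8.79e-05). COL3A1 and COL1A2 fell with log2 fold changes of -6.06 ± 0.60 and -3.93 ± 0.41. LOXL4, a lysyl oxidase that cross-links collagen, rose from 124, 141, 96.8, 78.2 and 96.1 CPM to 1184, 1129, 1228, 1486 and 1322 CPM, above the parental 697 CPM (log2 fold change 3.59 ± 0.20, adjusted p = 1.74e-05). COL9A3, a non-fibrillar collagen, rose with a log2 fold change of 2.69 ± 0.19.

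Integrins and matrix ligands were evenly divided, 12 higher and 12 lower of 35 tested, with a median log2 fold change of -0.28. That is 34.3% in each direction, beside 26.5% and 27.6% of all genes. ITGA9, an integrin alpha chain (chr3:37452115-37823514), was under 1 CPM in every persister library, at 0.108, 0.184, 0.263, 0.788 and 0.272 CPM, and at 87.0, 78.8, 67.6, 90.3 and 82.5 CPM after withdrawal, near the parental 73.7 CPM. The change was a log2 fold change of 8.07 ± 0.39 (adjusted p = 1.45e-05). ITGA1 and ITGA10, collagen-binding chains, rose with log2 fold changes of 3.75 ± 0.25 and 3.69 ± 0.33. The small proteoglycan lumican, LUM, was at 32.7, 135, 297, 122 and 277 CPM before and 3.86, 4.10, 5.50, 2.34 and 4.46 CPM after withdrawal (log2 fold change -5.16 ± 0.48, adjusted p = 0.00017), with persister culture 1 lowest, and decorin, DCN, fell with a log2 fold change of -4.52 ± 0.45.

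In the list of matrix metalloproteinases and their inhibitors, 14 of 20 members fell and 4 rose (median log2 fold change -1.99). MMP3, stromelysin, was at 224, 58.5, 75.8, 54.3 and 30.3 CPM in drug and 0.866, 0.0523, 0.572, 0.113 and 0.0549 CPM after withdrawal, with no overlap (log2 fold change -8.21 ± 0.38, adjusted p = 1.3e-05). MMP13, a collagenase, went from a range of 2.88 to 45.8 CPM to one of 0 to 0.117 CPM (log2 fold change -8.40 ± 0.38, adjusted p = 9.6e-06). The inhibitor TIMP3 rose from 312, 907, 679, 364 and 777 CPM to 1509, 1534, 1890.2, 1537 and 1817 CPM (log2 fold change 1.56 ± 0.23, adjusted p = 0.00101), and MMP8 and MMP17 rose with log2 fold changes of 2.24 ± 0.42 and 2.05 ± 0.30.

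Receptor tyrosine kinases changed in both directions. Of 37 tested, 14 rose and 17 fell, with a median log2 fold change of -0.39. ROS1, a receptor kinase (chr6:117288300-117425855), was at 19.4, 3.73, 93.3, 116 and 52.0 CPM in the persister cultures, lowest in culture 2 and highest in culture 4, and at 0.0734, 0.0697, 0.205, 0.0563 and 0.0961 CPM after withdrawal. The parental library held 0 CPM. The groups were far apart (log2 fold change -8.98 ± 0.50, adjusted p = 2.25e-05). The ephrin receptor EPHA5 and KIT fell with log2 fold changes of -7.94 ± 0.27 and -5.14 ± 0.47. FGFR4 and NTRK3 rose with log2 fold changes of 4.01 ± 0.24 and 3.63 ± 0.74, and PDGFRB was not called (log2 fold change 0.33 ± 0.20, adjusted p = 0.206) except without culture 5 (adjusted p = 0.00629).

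The cell-cycle brake CDKN1A, which encodes p21 (chr6:36676460-36687339), was at 635, 518, 503, 427 and 479 CPM in the persister cultures and 79.0, 62.2, 86.4, 78.9 and 75.8 CPM after withdrawal. The groups were far apart and the withdrawn level was just above the parental 60.9 CPM (log2 fold change -2.74 ± 0.13, adjusted p = 9.64e-06). Of 29 CDK inhibitors and p53 target genes, 19 fell and 7 rose (median log2 fold change -0.73). PLK2 and TP53INP1, both p53 targets, fell with log2 fold changes of -2.22 ± 0.34 and -2.15 ± 0.13. The inhibitors CDKN1C (log2 fold change 4.04) and CDKN1B, which encodes p27 (log2 fold change 0.68), went up, as did CCNG2 (log2 fold change 1.29) and SESN3 (log2 fold change 1.26).

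Proliferation genes varied widely between the persister cultures. MKI67, the Ki-67 antigen of dividing cells, was at 154, 705, 504, 517 and 45.2 CPM in persister cultures 1 to 5 and at 593, 550.1, 653, 677 and 654 CPM after withdrawal. Persister cultures 1 and 5 were low, cultures 2, 3 and 4 lay close to the withdrawn range, and culture 2 was above its withdrawn partner. No change was called (log2 fold change 1.15 ± 0.61, adjusted p = 0.149). TOP2A, the mitotic topoisomerase, was low in the same 2 cultures, and went from 183, 954, 741, 657 and 68.5 CPM to 814, 801, 853, 802 and 836 CPM (log2 fold change 1.13 ± 0.60, adjusted p = 0.148), and the S-phase factor E2F1 was not called either (log2 fold change 0.59 ± 0.35, adjusted p = 0.186) except without culture 2 (adjusted p = 0.0456).

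Of 45 DNA replication and S-phase genes, 16 rose and 0 fell, with a median log2 fold change of 0.75. By culture, the median paired log2 difference was 1.19, -0.23, 0.31, 0.26 and 1.98 in cultures 1 to 5. Of 46 mitosis genes, 9 rose and 0 fell (median 1.02), and their median differences by culture were 1.83, -0.11, 0.21, 0.23 and 3.10. By edgeR at an unadjusted p under 0.05, 18 S-phase genes and 17 mitosis genes were higher and 0 of either list lower, and DESeq2 and limma-voom called 0 lower as well. Cultures 1 and 5 thus carried most of both medians, and culture 2 had medians below 0. E2F8, an S-phase repressor, was at 1.17, 8.07, 3.77, 3.20 and 0.354 CPM before and 12.5, 14.1, 12.5, 10.2 and 12.1 CPM after withdrawal (log2 fold change 2.40 ± 0.61, adjusted p = 0.0133; with no low-count filter, adjusted p = 0.0939), and E2F2, another E2F factor, rose with a log2 fold change of 1.58 ± 0.27. NUF2, a kinetochore protein, was at 17.1, 65.6, 77.0, 71.6 and 7.68 CPM before and 109, 113, 116, 118 and 111 CPM after withdrawal (log2 fold change 1.66 ± 0.53, adjusted p = 0.0331). NUF2 was not called without culture 1 (adjusted p = 0.101).

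These counts depended on single cultures. With culture 1 left out, 4 S-phase genes and 1 mitosis gene rose. With culture 3 left out, 10 S-phase genes rose, and with culture 5 left out, 5 mitosis genes rose. Without both cultures 1 and 5, 12 mitosis genes rose and 5 fell, with a median of 0.10, and 12 S-phase genes rose and 4 fell, with a median of 0.11. The mitosis count was 4 with no block for the culture, 18 with DESeq2 and 0 with no low-count filter. The S-phase count was 11, 24 and 5 in the same settings and 22 without culture 2. Without culture 5, 15 S-phase genes rose and 1 fell.

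The promoter of NUF2 is shown as an example of a cell-cycle motif that most promoters of the mitosis list held. Promoters were taken from RefSeq (GRCh38.p14, 250 bases before to 50 after the start site), and 39 of 46 mitosis genes tested matched an entry. The core of the cell cycle homology region, TTTGAA on either strand, was found in 28 of these 39 (71.8%), beside 10.0% of the 11157 promoters of tested protein-coding genes, and CCAAT in 29 of 39 (74.4%), beside 36.7%. In the NUF2 promoter on the plus strand, chr1:163321704-163322003, the capitals mark TTTGAA.
NUF2: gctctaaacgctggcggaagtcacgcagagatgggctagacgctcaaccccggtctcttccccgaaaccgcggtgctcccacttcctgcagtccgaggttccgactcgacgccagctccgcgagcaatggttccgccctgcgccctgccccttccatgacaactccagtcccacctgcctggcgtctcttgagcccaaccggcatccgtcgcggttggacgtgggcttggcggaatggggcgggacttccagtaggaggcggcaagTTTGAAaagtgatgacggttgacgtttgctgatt
Of the S-phase promoters, 9 of 38 held the E2F motif TTTCCCGC on either strand (23.7%, beside 2.54% of all) and 8 of 38 held TTTGGCGC (21.1%, beside 1.11%). A match describes letters in this window and not binding of a factor.

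**Figure D3:**
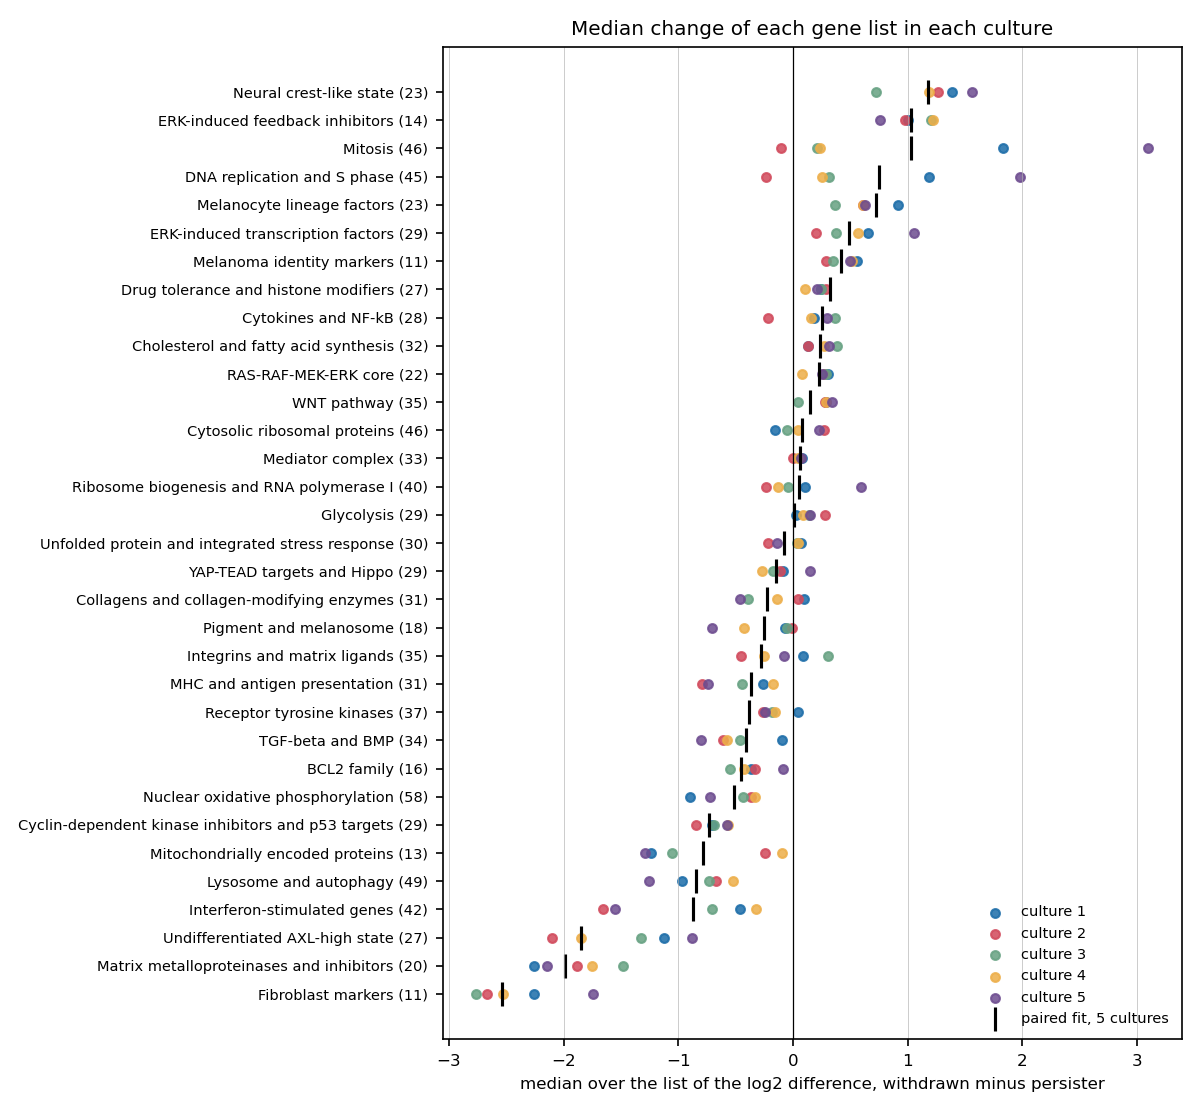
Median paired log2 difference, withdrawn minus persister, over the tested members of each gene list, with 1 coloured point for each of the 5 cultures and a black bar at the median log2 fold change of the paired fit. The mitosis and S-phase lists spread widest, with cultures 1 and 5 far to the right, while the 5 cultures lie closest together for the Mediator complex. Lists with fewer than 10 tested members are not drawn.

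The BCL2 family, which sets the threshold for apoptosis, had 5 members higher and 8 lower of 16 tested, with 3 higher when culture 1, 2, 3 or 5 was left out. BCL2L1, whose main product BCL-XL protects cells, was at 109, 89.6, 83.1, 58.8 and 86.8 CPM in drug and 24.5, 24.7, 29.7, 23.3 and 23.6 CPM after withdrawal (log2 fold change -1.74 ± 0.13, adjusted p = 5.48e-05), with no overlap. The exons of BCL2L1 are shared in part with the antisense gene ABALON. The pro-death genes BAX and BBC3 fell with log2 fold changes of -1.31 ± 0.12 and -1.05 ± 0.15, and the protective genes MCL1, BCL2 and BCL2A1 rose with log2 fold changes of 0.68 ± 0.09, 0.81 ± 0.14 and 0.97 ± 0.22.

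Interferon-stimulated genes were lower after withdrawal, 26 of 42 tested against 2 that rose, with a median log2 fold change of -0.88. The size differed by culture, with median paired log2 differences of -0.46, -1.66, -0.71, -0.32 and -1.55 in cultures 1 to 5. TRIM22, an antiviral ubiquitin ligase (chr11:5689689-5737089), was at 42.2, 55.1, 38.1, 26.1 and 67.4 CPM in the persister cultures and 1.03, 0.976, 1.79, 1.24 and 1.04 CPM after withdrawal, with no overlap and a parental level of 0.523 CPM (log2 fold change -5.19 ± 0.31, adjusted p = 2.66e-05). RSAD2, the antiviral enzyme viperin, was at 0.860, 27.4, 6.48, 1.13 and 18.2 CPM in drug, high in cultures 2 and 5 and near 1 CPM in cultures 1 and 4, and at 0.132, 0.105, 0.264, 0.183 and 0.124 CPM after withdrawal (log2 fold change -5.13 ± 0.90, adjusted p = 0.00278). OASL went from a range of 1.93 to 12.5 CPM to one of 0.0349 to 0.264 CPM (log2 fold change -5.38 ± 0.61, adjusted p = 0.000359). The members that rose were the nuclease ISG20, from a range of 3.95 to 16.3 CPM to one of 36.5 to 47.5 CPM (log2 fold change 2.44 ± 0.28, adjusted p = 0.000379), and the guanylate-binding protein GBP2 (log2 fold change 0.70 ± 0.25, adjusted p = 0.0471). GBP2 was not called without culture 1, 2, 3 or 4 (adjusted p = 0.125, 0.130, 0.0658 and 0.0787).

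ISG15 and IFIT1, chosen after their values were seen because their promoters hold the motif more than once, had the same direction. ISG15, a ubiquitin-like protein, was at 10.8, 17.0, 16.5, 6.598 and 28.7 CPM before and 1.34, 1.499, 1.79, 1.11 and 1.21 CPM after withdrawal (log2 fold change -3.37 ± 0.29, adjusted p = 0.000104). IFIT1, which binds viral RNA, was at 22.2, 118, 48.6, 21.1 and 85.04 CPM before and 16.7, 14.7, 15.4, 19.1 and 14.6 CPM after withdrawal (log2 fold change -1.55 ± 0.46, adjusted p = 0.0247), and was not called without culture 2, 3 or 5 (adjusted p = 0.0640, 0.0660 and 0.0719). Of 42 tested genes, 30 matched a RefSeq promoter, and the interferon-stimulated response element, searched on both strands as a pair of TTTC blocks with any 2 bases between them, lay in 19 of them (63.3%), beside 2.94% of the 11157 promoters. Of the 19 genes, 12 fell and 1 rose, beside 26 that fell and 2 that rose among all 42 tested. In the promoters of ISG15 (plus strand, chr1:1013247-1013546) and IFIT1 (plus strand, chr10:89392373-89392672) the capitals mark the matches, which overlap and read on the minus strand in ISG15.
ISG15: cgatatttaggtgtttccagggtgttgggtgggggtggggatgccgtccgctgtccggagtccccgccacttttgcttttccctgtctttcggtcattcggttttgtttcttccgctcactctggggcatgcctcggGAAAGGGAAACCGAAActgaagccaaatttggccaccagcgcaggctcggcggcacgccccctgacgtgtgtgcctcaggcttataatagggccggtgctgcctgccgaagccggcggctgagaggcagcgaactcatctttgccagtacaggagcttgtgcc
IFIT1: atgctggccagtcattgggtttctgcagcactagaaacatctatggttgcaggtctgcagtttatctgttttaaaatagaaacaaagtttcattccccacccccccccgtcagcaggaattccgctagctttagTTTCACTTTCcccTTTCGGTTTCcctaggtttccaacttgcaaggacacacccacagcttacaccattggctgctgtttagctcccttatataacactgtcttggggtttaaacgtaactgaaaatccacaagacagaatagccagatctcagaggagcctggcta

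Antigen presentation split by class. In the whole list, 10 of 31 tested genes rose and 16 fell. After the values were seen the list was divided. All 10 class II genes with CD74 and the class II transactivator rose, with a median log2 fold change of 2.50, whereas 0 of 21 class I, immunoproteasome and peptide-loading genes rose and 16 fell, with a median of -0.79 (by edgeR 0 rose also at an unadjusted p under 0.05). CIITA, the master regulator of class II (chr16:10866222-10943021), was at 6.56, 25.3, 13.8, 16.5 and 14.01 CPM in the persister cultures and 96.6, 103, 99.3, 106 and 111 CPM after withdrawal, around the parental 103 CPM (log2 fold change 2.88 ± 0.25, adjusted p = 0.000123). HLA-DQA1 and HLA-DQB1 rose with log2 fold changes of 3.25 ± 0.30 and 2.69 ± 0.35. On the class I side the peptide editor TAPBPL, the immunoproteasome subunit PSMB10 and HLA-F fell with log2 fold changes of -2.22 ± 0.18, -1.87 ± 0.17 and -1.46 ± 0.22. HLA genes share sequence with each other, so reads may have been split between them.

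Lysosome and autophagy genes fell in 35 of 49 tested members and rose in 4, with a median log2 fold change of -0.85 and medians by culture of -0.97, -0.67, -0.73, -0.52 and -1.25. CTSA, a lysosomal carboxypeptidase (chr20:45890144-45898820), was at 644, 517, 482, 365 and 996 CPM before and 144, 135, 143, 149.6 and 132 CPM after withdrawal, with no overlap and above the parental 97.9 CPM (log2 fold change -2.005 ± 0.22, adjusted p = 0.000287). SQSTM1, the autophagy receptor p62, went from 988, 564, 645, 426 and 799 CPM to 159, 177, 175, 157 and 159 CPM, with the withdrawn libraries around the parental 162 CPM (log2 fold change -1.99 ± 0.18, adjusted p = 0.00014). CTSK, cathepsin K, fell with a log2 fold change of -2.13 ± 0.37, and persister culture 5 stood above the rest at 1123 CPM. LAMP3 and the autophagy gene WIPI1 rose with log2 fold changes of 2.21 ± 0.59 and 0.90 ± 0.20, and LAMP3 was not called without culture 4 (adjusted p = 0.0551).

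The CLEAR element that lysosomal transcription factors of the MITF and TFE family bind was searched as TCACGTGA on both strands, which holds the E-box CACGTG, and 31 of 49 genes matched a promoter. It lay in 4 of them (12.9%), beside 1.83% of the 11157 promoters, namely those of LAMP1, CTSA, MCOLN1 and ATP6V0D1. All 4 fell, as did 35 of the 49 tested genes of the list (71.4%). LAMP1, a lysosomal membrane protein chosen after its values were seen, was at 739, 682, 611, 569.6 and 820.2 CPM in drug and 306, 258, 270.1, 310.1 and 271 CPM after withdrawal (log2 fold change -1.27 ± 0.12, adjusted p = 0.000144). The promoters of LAMP1 (plus strand, chr13:113296989-113297288), with 2 matches, and CTSA (plus strand, chr20:45891085-45891384), with 1 match, follow, with the matches in capitals.
LAMP1: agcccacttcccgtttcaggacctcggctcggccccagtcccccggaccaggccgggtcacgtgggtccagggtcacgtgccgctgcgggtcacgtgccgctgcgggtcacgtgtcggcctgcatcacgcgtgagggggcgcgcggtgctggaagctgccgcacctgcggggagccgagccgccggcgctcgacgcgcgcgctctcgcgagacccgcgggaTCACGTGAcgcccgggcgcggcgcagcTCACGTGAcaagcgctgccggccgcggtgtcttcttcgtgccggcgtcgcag
CTSA: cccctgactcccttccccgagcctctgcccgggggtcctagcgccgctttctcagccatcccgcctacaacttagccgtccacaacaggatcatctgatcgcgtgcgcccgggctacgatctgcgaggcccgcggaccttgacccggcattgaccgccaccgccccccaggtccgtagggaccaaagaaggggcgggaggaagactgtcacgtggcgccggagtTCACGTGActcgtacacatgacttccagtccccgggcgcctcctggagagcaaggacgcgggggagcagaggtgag

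Genes of mitochondrial respiration were mostly lower, by small amounts. Among 58 nuclear genes of oxidative phosphorylation, 45 fell and 1 rose, with a median log2 fold change of -0.52. PPARGC1A, the coactivator PGC-1alpha that drives mitochondrial biogenesis (chr4:23755041-23904089), had by far the largest change, from 62.0, 19.3, 18.5, 30.9 and 44.7 CPM to 2.91, 0.837, 1.26, 1.94 and 1.68 CPM, above the parental 0.277 CPM (log2 fold change -4.31 ± 0.16, adjusted p = 6.6e-06). The ATP synthase subunit ATP5MC1 and the complex I subunit NDUFA6 fell with log2 fold changes of -1.15 ± 0.12 and -1.09 ± 0.13. NDUFV2, the member that rose (log2 fold change 1.92), had under 2 CPM in every library and shares exons with another gene.

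The mitochondrially encoded genes fell as well, in 10 of 13 tested, with a median log2 fold change of -0.79. By edgeR 0 were higher, also at an unadjusted p under 0.05, and DESeq2 and limma-voom called 0 higher as well. The count was 6 without culture 1, 6 without culture 3 and 5 without cultures 1 and 5. MT-ND1, a complex I subunit, was at 3549, 2181, 2805, 1848 and 3294 CPM in drug and 665, 714, 647, 748 and 687 CPM after withdrawal, with no overlap (log2 fold change -1.94 ± 0.18, adjusted p = 0.000143). Mitochondrial genes took 8.88%, 4.51%, 6.72%, 4.64% and 9.28% of all counts in persister cultures 1 to 5 and 3.70%, 3.61%, 3.15%, 3.68% and 3.61% after withdrawal, beside 2.96% in the parental library. The share was lower in 5 of 5 pairs, with a difference of -3.26 ± 2.26 percentage points (SD, n = 5), and an exact two-sided sign-flip permutation test gave p = 0.0625, the smallest value that 5 pairs allow. The part of this share in the falls of respiration genes was not tested. With mitochondrial genes taken out before scaling, 99.4% of all calls were kept.

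Glycolysis genes showed no common direction, 11 higher and 8 lower of 29, with a median log2 fold change of 0.01 that ranged from -0.04 to 0.25 over the alternative analyses. PFKFB4 and PFKFB3, which make the activator of phosphofructokinase, and the glucose transporter SLC2A3 rose with log2 fold changes of 2.34 ± 0.10, 1.62 ± 0.10 and 2.25 ± 0.17. PKM and PGAM1 fell with log2 fold changes of -0.82 ± 0.12 and -0.67 ± 0.08. Of 32 sterol and fatty acid genes 13 rose and 3 fell (median 0.24). STARD4, a sterol carrier, and FASN, fatty acid synthase, rose with log2 fold changes of 1.71 ± 0.10 and 1.18 ± 0.14, and the sterol enzymes LSS and PMVK fell with log2 fold changes of -0.80 ± 0.11 and -0.41 ± 0.09.

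In the unfolded protein and integrated stress response list, 8 of 30 genes rose and 11 fell (median -0.08). The number that rose was 5 without culture 1, 3 or 4. ATF5, a stress-induced transcription factor, had the largest change, from a range of 25.7 to 41.3 CPM to one of 4.52 to 5.31 CPM (log2 fold change -2.73 ± 0.13, adjusted p = 1.13e-05), and SESN2 and CALR fell with log2 fold changes of -1.15 ± 0.10 and -0.84 ± 0.10. PHGDH, the first enzyme of serine synthesis, VLDLR and DDIT4 rose with log2 fold changes of 1.23 ± 0.20, 1.58 ± 0.18 and 1.18 ± 0.14. Of 46 cytosolic ribosomal protein genes 1 rose and 2 fell, with a median log2 fold change of 0.08, and these counts stayed between 0 and 3 when any 1 culture was left out. Of 40 ribosome biogenesis genes 8 rose, led by the RNA polymerase I subunit POLR1B (log2 fold change 1.00), and 4 fell. With culture 5 left out 10 of them fell, and with culture 1 or 3 left out 5 rose and 2 fell.

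Mediator, the complex that carries signals from transcription factors to RNA polymerase II, had members that rose and members that fell. Over the whole complex, 10 of 33 genes rose and 10 fell, with a median log2 fold change of 0.06. Each direction held 30.3% of the complex, beside 26.5% higher and 27.6% lower of all genes. The 7 genes of the kinase module, a subset set apart after the values were seen, all rose, with log2 fold changes from 0.52 to 1.38. Of the remaining 26, 3 rose and 10 fell. MED12 was at 45.2, 33.0, 48.2, 55.7 and 45.0 CPM in persister cultures and 80.8, 78.3, 87.1, 80.5 and 85.8 CPM after withdrawal, without overlap (log2 fold change 0.88 ± 0.11, adjusted p = 0.00045). CDK8, its paralogue CDK19 and their cyclin CCNC rose with log2 fold changes of 0.60 ± 0.09, 0.53 ± 0.08 and 0.55 ± 0.08, each in 5 of 5 cultures and with no overlap. MED14, a backbone subunit, rose with a log2 fold change of 1.21 ± 0.11, and MED10, MED29 and MED7 fell with log2 fold changes of -0.76 ± 0.11, -0.62 ± 0.08 and -0.58 ± 0.10.

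TGF-beta and BMP pathway genes fell in 16 of 34 cases and rose in 8 (median -0.41). TGFB2, a TGF-beta ligand, was at 22.7, 20.2, 56.5, 87.8 and 20.5 CPM before and 2.30, 1.17, 3.34, 4.84 and 2.38 CPM after withdrawal (log2 fold change -3.76 ± 0.20, adjusted p = 1.67e-05), and NOG, a secreted BMP antagonist, fell with a log2 fold change of -6.04 ± 0.61. CHRDL1, another BMP antagonist (chrX:110673856-110795819), went the other way, from 0.0307, 0.386, 0.216, 0.497 and 0.109 CPM to 89.8, 139, 83.4, 102 and 118 CPM, at or above the parental 83.4 CPM (log2 fold change 8.82 ± 0.45, adjusted p = 1.74e-05). FST, the activin antagonist follistatin, was at 5.85, 74.7, 3.91, 5.08 and 5.76 CPM in drug, with culture 2 alone high, and at 190.0, 217, 240.5, 237 and 285 CPM after withdrawal (log2 fold change 4.90 ± 0.73, adjusted p = 0.00130). FST was not called without cultures 1 and 5 (adjusted p = 0.0532). BMP6 rose with a log2 fold change of 3.94 ± 0.23. The 5 ID and inhibitory SMAD genes, classical BMP and TGF-beta targets set apart after the values were seen, all fell, with a median of -1.28.

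The YAP and TEAD list held 2 opposite groups, separated after the values were seen. Of 12 target genes 2 rose and 9 fell (median -1.79), and of 13 genes for YAP, TAZ, TEAD factors and Hippo kinases 9 rose and 1 fell (median 0.60). WWTR1, which encodes TAZ, was at 391, 359, 301, 369 and 329 CPM before and 1280.0, 1487, 1244, 1380.3 and 1424 CPM after withdrawal, with no overlap (log2 fold change 1.96 ± 0.10, adjusted p = 1.45e-05). The targets ANKRD1 and VGLL3 fell with log2 fold changes of -3.42 ± 0.50 and -3.22 ± 0.71, and AMOTL1, a junction protein that binds YAP, rose with a log2 fold change of 1.74 ± 0.13. VGLL3 was not called with no low-count filter (adjusted p = 0.0717).

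In the WNT list 15 of 35 genes rose and 9 fell (median 0.15). LGR5, an R-spondin receptor and WNT target, was at 1.36 to 5.23 CPM in drug and 0 to 0.0141 CPM after withdrawal (adjusted p = 1.22e-05). The 5 withdrawn libraries held 2 counts of it together against 1235 in drug, a ratio of 613 with a 95% counting interval of 169 to 5067. SFRP1, a secreted WNT antagonist, rose from 31.3, 201, 82.96, 45.0 and 48.2 CPM to 708, 712, 762, 769 and 736 CPM, above the parental 484 CPM (log2 fold change 3.54 ± 0.40, adjusted p = 0.000402). NKD2, an inhibitor of the pathway, had 2 counts over the 5 persister libraries and 222 over the withdrawn ones, a ratio of 112 with a 95% counting interval of 30.6 to 929 (adjusted p = 0.000151). The counting intervals of LGR5 and NKD2 leave out the spread between cultures. Both genes passed the low-count filter only through the group where they are high, so their adjusted p-values are no test of a change. The repressor TCF7L1 rose with a log2 fold change of 2.79 ± 0.39, and the WNT5A receptor ROR2 fell with a log2 fold change of -3.08 ± 0.43.

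Cytokine and NF-kB genes had 10 higher and 9 lower of 28, 35.7% and 32.1% beside 26.5% and 27.6% of all genes. IL24, a cytokine first found in melanoma (chr1:206897443-206904139), was at 25.1, 67.0, 47.7, 112 and 169.9 CPM before and 682, 680.0, 757, 709 and 674 CPM after withdrawal (log2 fold change 3.34 ± 0.41, adjusted p = 0.000569). Every withdrawn library stood far above the parental 98.1 CPM, while the persister cultures spread on both sides of it. CCL2, a monocyte chemokine, fell from a range of 14.8 to 39.3 CPM to one of 0.494 to 1.35 CPM (log2 fold change -4.91 ± 0.37, adjusted p = 6.89e-05) . IL32 fell with a log2 fold change of -6.38 ± 0.36, and IL1A rose with a log2 fold change of 6.43 ± 0.69.

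Of 27 genes tied to drug tolerance and histone modification, 11 rose and 8 fell, with a median log2 fold change of 0.32 that ranged from -0.01 to 0.37 over the alternative analyses. JARID2, a partner of the Polycomb repressive complex, was at 18.7, 14.3, 15.8, 24.8 and 14.8 CPM in drug and 85.9, 84.5, 79.7, 83.9 and 82.0 CPM after withdrawal, around the parental 81.0 CPM (log2 fold change 2.27 ± 0.13, adjusted p = 2.05e-05). The histone demethylase KDM6A rose with a log2 fold change of 1.22 ± 0.13 and the aldehyde dehydrogenase ALDH1A1 with one of 2.24 ± 0.37. ABCB5, a drug efflux transporter, went from a range of 6.84 to 25.3 CPM to one of 0.0349 to 0.690 CPM (log2 fold change -5.50 ± 0.47, adjusted p = 0.000115), and the fatty acid transporter CD36 and the growth factor-binding protein IGFBP5 fell with log2 fold changes of -3.08 ± 0.38 and -3.31 ± 0.21.

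Non-coding transcripts changed too. The long intergenic RNA AL713998.1 was at 79.2, 73.6, 70.7, 91.0 and 318 CPM in persister cultures, highest in culture 5, and at 2.01, 0.0349, 1.93, 1.28 and 0.673 CPM after withdrawal, with 0 CPM in the parental library (log2 fold change -6.68 ± 0.79, adjusted p = 0.000466). BCYRN1, a short brain cytoplasmic RNA with near-identical Alu copies in the genome, fell from a range of 42.2 to 146 CPM to one of 2.65 to 6.93 CPM, a count that is uncertain for that reason (log2 fold change -4.23 ± 0.32, adjusted p = 7.38e-05). The long RNAs AC025470.2, AL035541.1 and LINC02367 rose with log2 fold changes of 4.67 ± 0.19, 3.57 ± 0.31 and 3.501 ± 0.36, each with no overlap.

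Transcripts that the parental library lacked and the persister cultures held were followed over 4 weeks without drug, as a description. They are the 22 genes with at most 0.5 CPM in the parental library and at least 20 CPM in every persister library. High persister values chose them, so their fall is no test, and low values in that 1 parental library chose them too, so a level above it is favoured by the choice. Of the 22, 21 were called lower after withdrawal. In withdrawn cultures 1 to 5 their median level was 2.23%, 0.483%, 4.91%, 1.06% and 0.476% of the level in the same persister culture. Withdrawn culture 3 had the highest level for 15 of the 22 genes and withdrawn culture 2 the lowest for 15. After withdrawal 21 of the 22 were above the value of that parental library on average, and 16 were so in all 5 cultures. MME, SOX9, BASP1, TLL1, TRPC4, POSTN, MMP3 and GFRA1 are among them.

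The exception was EPB41L3, which encodes a cytoskeletal protein of the band 4.1 family (chr18:5392381-5630700) and was singled out after its values were seen. It was at 70.5, 33.6, 73.8, 91.7 and 83.3 CPM in the persister cultures and 59.8, 44.5, 61.8, 77.5 and 51.1 CPM after withdrawal, beside 0.138 CPM in the parental library. The groups overlapped, and no change was called (log2 fold change -0.21 ± 0.15, adjusted p = 0.265, 95% interval -0.55 to 0.13). Without culture 2, where it was lowest in drug, it was called lower, with a log2 fold change of -0.35 (adjusted p = 0.0364). In the opposite direction, 41 genes had at least 20 CPM in the parental library and at most 5 CPM in every persister library. Low persister and high parental values chose them, so neither their rise nor their level against that library is a test. All 41 were called higher after withdrawal, and their median level in the 5 withdrawn cultures was between 81.05% and 91.2% of the parental level.

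The 5 cultures became more alike after withdrawal. The median gene had an SD of log2 CPM of 0.347 over the persister libraries and of 0.128 over the withdrawn libraries, a ratio of 2.72. In 17218 of 19631 genes (87.7%) the persister SD was the larger. Pearson correlations across genes between libraries of a group ranged from 0.954 to 0.984 for persister and from 0.988 to 0.993 for withdrawn cultures. They describe likeness across genes, which are not independent replicates.

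**Figure D4:**
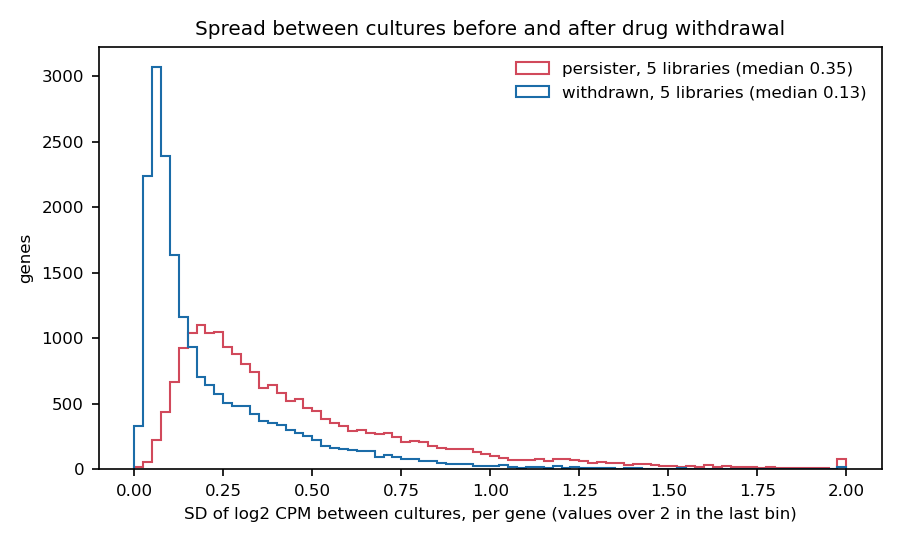
Number of genes by the SD of log2 CPM between the 5 libraries of a group, for persister and withdrawn cultures, over the 19631 tested genes. The withdrawn distribution peaks below 0.13 and the persister distribution lies to its right, with medians of 0.128 and 0.347.

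Some persister cultures also differed by chromosome. Each library was compared with the mean log2 CPM of the other 4 of its group, gene by gene, over protein-coding genes whose mean log2 CPM reached 3, and the median difference was taken for each chromosome. In persister culture 1 the median over 470 genes of chromosome 7 was 0.30. In persister culture 2 it was -0.43 over 347 genes of chromosome X and -0.22 over 1031 genes of chromosome 1. In windows of 20 Mb the sign held along chromosome 7 in culture 1 (0.23 to 0.34 in 8 of 8 windows) and along chromosome X in culture 2 (-0.62 to -0.19 in 7 of 7). On chromosome 1 the windows of culture 2 ran from -0.35 to 0.24, so that value is not one of the whole chromosome. After withdrawal culture 1 stood at 0.00 on chromosome 7 and culture 2 at 0.02 on chromosome X. The most extreme withdrawn values were -0.13 on chromosome 13 in culture 3 and 0.12 on chromosome 11 in culture 2. These are shifts of RNA level, and DNA copy number was not measured here.

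**Figure D5:**
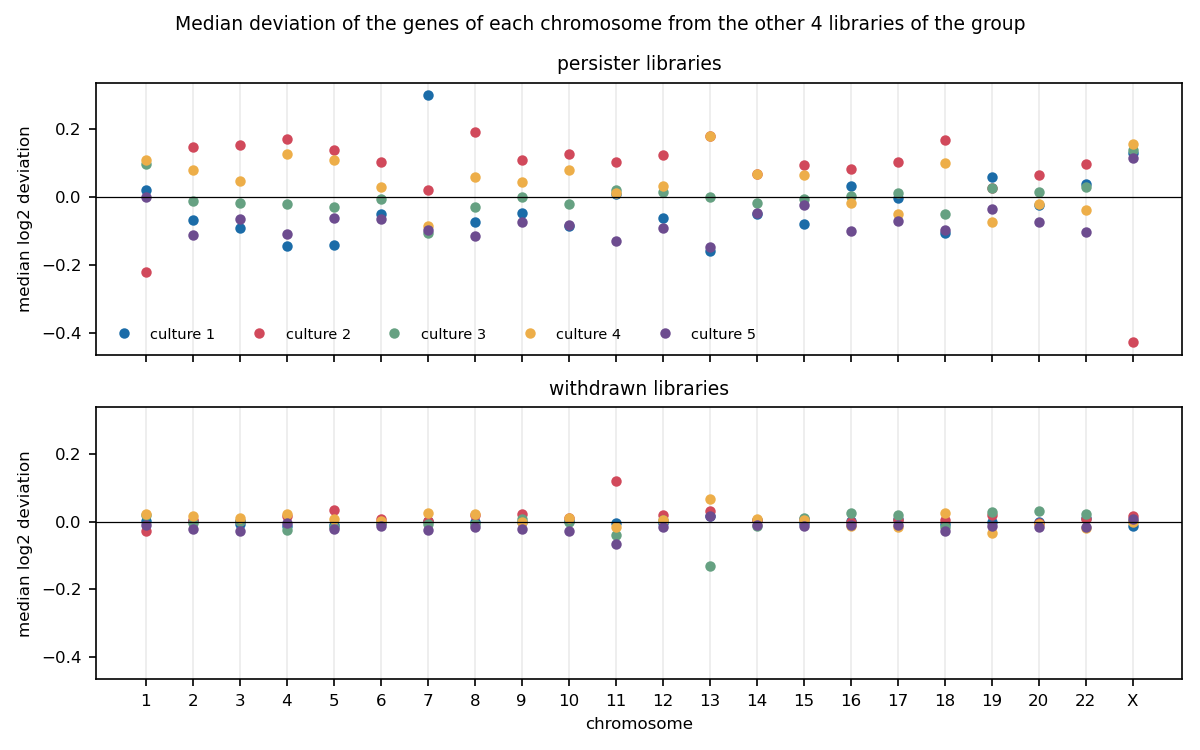
Median log2 deviation of the protein-coding genes of each chromosome from the other 4 libraries of the same group, for persister (top) and withdrawn (bottom) libraries, with 1 colour for each culture. Persister culture 1 stands out on chromosome 7 and persister culture 2 on chromosomes X and 1, while withdrawn libraries lie between -0.13 and 0.12.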

How the data were processed

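Poly(A) RNA of A375 cultures was sequenced from stranded libraries, per the labels' protocols. The authors deposited 1 table of raw read counts per gene, made with bcl2fastq, HISAT2, hg38 and HTSeq, per the submitters' processing notes. Not given in the sources used here are versions, the annotation release and the strand setting of the counting, so reads of overlapping or antisense genes, and of near-identical copies, may be shared. Of the 196 tested genes named in the texts, 61 share exon bases with another gene. The shared part was 48.5% in DDIT4, 40.1% in HLA-F, 39.8% in SQSTM1, 39.4% in DUSP6 and 34.0% in LYZ. It was 30.7% in PSMB10, 29.6% in CTSA, 28.5% in WIPI1, 27.7% in ATF5 and 27.1% in TGFB2, so these counts are uncertain too. All columns belong to samples and no row is a total. Gene IDs were matched to GENCODE release 29 (GRCh38), and 58721 of 58721 matched. Total counts of 56513920 to 82984566 per library set the counting precision.

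Genes with at least 10 counts scaled to library size in enough libraries and 15 in all were kept (edgeR filterByExpr), which left 19631. Counts were scaled by TMM and tested with edgeR 4.0.16 (R 4.3.3) by a quasi-likelihood model with group and culture number on 10 libraries, with Benjamini-Hochberg adjustment and a threshold of 0.05. Changes past 2-fold were tested with glmTreat. CPM values are TMM-scaled. A prior count of 2 was added for the log2 CPM behind paired differences and SDs. The pairing comes from the sample titles. Deviations from the group means correlated with r = 0.0608, 0.0832, 0.113, 0.113 and 0.106 between the libraries of cultures 1 to 5. In 5 of 5 cultures the library with the same number correlated best, although in culture 1 the next library came close (r = 0.0574).

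The libraries, the 36 gene lists (958 of 1010 genes passed the filter) and the genes named were chosen with earlier results of these data known. The rule names, among protein-coding genes off the Y chromosome, the 12 largest rises and falls whose mean log2 CPM reached 3, with the same sign in 5 of 5 pairs and no overlap, the 3 called members of each list with the largest rise and fall, a set of genes of interest, the 5 genes with the widest range over cultures, and 5 non-coding genes. List members without printed values, such as CD74, MCOLN1, ATP6V0D1 and THY1, and genes said to be chosen after their values were seen fall outside it. Some genes are not reported here. In 1 set of simulated counts with known changes, the paired test missed most of the smallest changes and its share of false calls was above the threshold. A far smaller part of the genes changed in that set than was called here, and its spread came from a fit without the culture. Neither outcome can therefore be read as a rate for these data. The 15 alternatives changed the block, tool (DESeq2 1.42.0, limma 3.58.1), scaling, filter or cultures.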

Additional observations from a re-analysis of the deposited data

Results flagged for a closer look

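In 396 sets of 5 libraries, 1 set for each value and group, 42 had 1 library whose gap to the nearest other was over 0.71 of the range, the 95% critical value of Dixon's test. For independent, normally distributed values about 1 in 20 sets would be flagged. CPM values are skewed, the genes are not independent, and some were named for their wide range over cultures. The number of flags is therefore a description and not a test. Some flags, such as those of NKD2 and KIT, rest on few reads. The gaps were judged on the CPM scale and were not tested for a cause.

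Persister culture 1 stood apart as the highest library of its group in ATP5MC1 at 198 CPM, L1CAM at 746 CPM and MMP3 at 224 CPM. Persister culture 2 stood apart as the highest library of its group in CCND1 at 419.9 CPM, DUSP6 at 33.0 CPM, FST at 74.7 CPM, MYC at 30.4 CPM, PLAUR at 42.7 CPM, SPRY2 at 57.5 CPM, VGF at 27.9 CPM and ZEB1 at 49.2 CPM. Persister culture 3 stood apart as the highest library of its group in IL32 at 11.7 CPM and LYZ at 0.356 CPM. Persister culture 4 stood apart as the highest library of its group in COL19A1 at 4.04 CPM, ERBB3 at 84.9 CPM, ITGA9 at 0.788 CPM, NGFR at 90.8 CPM, POSTN at 3194 CPM and RXRG at 4.69 CPM. Persister culture 5 stood apart as the highest library of its group in AL713998.1 at 318 CPM, CTSK at 1123 CPM, MSX2 at 114 CPM, NKD2 at 0.0272 CPM, PDE3A at 20.6 CPM, PDGFRB at 31.6 CPM and STARD4 at 15.8 CPM.

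Withdrawn culture 3 stood apart as the highest library of its group in ARMC4 at 5.31 CPM, BASP1 at 4.47 CPM, BCL2L1 at 29.7 CPM, CPA4 at 14.4 CPM, FOSL1 at 154 CPM, KIT at 0.103 CPM, ROS1 at 0.205 CPM, TENM2 at 17.3 CPM and TLL1 at 6.61 CPM. Withdrawn culture 3 stood apart as the lowest library of its group in CDK8 at 28.1 CPM and TFAP2B at 311 CPM. Withdrawn culture 4 stood apart as the highest library of its group in BCL2A1 at 16.02 CPM. Withdrawn culture 4 stood apart as the lowest library of its group in COL5A1 at 5.63 CPM and FGFR4 at 8.66 CPM. Withdrawn culture 5 stood apart as the lowest library of its group in PSMB10 at 2.33 CPM. Withdrawn culture 3 had the lowest share of counts from mitochondrial genes in that group, 3.15%, beside 3.61% to 3.70% in the others.

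Withdrawn culture 3 accounted for 12 of these sets and persister culture 2 for 8. Among the genes with withdrawn culture 3 highest, BASP1, TLL1 and ARMC4 belong to the 22 genes that were high in drug and nearly absent from the parental library.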

How the results depend on the processing

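Across 15 alternative analyses the number of called genes ranged from 8592 to 12427 beside 10630, between 46.6% and 49.9% of calls were higher, and 0 of the 10630 calls changed direction while called. With no replicate block 11057 genes were called and 97.0% of the calls of the paired fit were kept. That fit did not keep the calls of GBP2 and NUF2 and moved the number of mitosis genes called higher from 9 to 4. Leaving out 1 culture at a time gave 8592 to 10415 called genes. DESeq2 called 10990 genes and limma-voom 10859. With 1.5-fold in place of 2-fold as the bound, 4949 genes were called, 2403 higher and 2546 lower. Leaving out 1 culture at a time, FOSL1 ranged from a log2 fold change of -0.60 to one of 0.16, and it reversed without culture 2 (adjusted p = 0.694), with no call in any of them. Of 2939 values of the named genes under the alternatives, 2888 kept their direction and their side of the threshold, 41 lost the call and 9 gained it. The cause was not tested. The mitochondrial share differed by -3.84 to -2.65 percentage points when 1 culture was left out, and by -2.70 with protein genes only. The ratio of persister to withdrawn SD was 2.75 with a prior count of 0.5 and 3.33 over genes whose mean log2 CPM reached 3. Depth limits the genes near the low-count filter, where a group at 0 counts, as for OCA2, allows a lower bound only.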

Other observations

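By annotated class, 4113 of 14175 protein-coding genes tested were called higher and 4320 lower. Of 1356 long intergenic RNAs 308 were higher and 349 lower, and of 1237 antisense RNAs 237 were higher and 297 lower. Among 1272 processed pseudogenes, whose reads may come in part from their parent genes, 164 were higher and 155 lower. Small nucleolar RNAs, which guide the modification of ribosomal RNA, were higher in 13 of 40 cases and lower in 0. Of 7 mitochondrial transfer RNAs 6 were lower, as were 2 of 2 mitochondrial ribosomal RNAs. Poly(A) selection captures these short or unpolyadenylated RNAs poorly, so their levels are values of these libraries.

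The 20 most abundant genes took 8.51% to 12.6% of the counts in persister libraries and 7.43% to 7.77% in withdrawn libraries, which was not tested further.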
